A study of Rattus norvegicus with 22 samples.

Results

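The 8 genes described here belong to the machinery with which the liver burns, stores and exports fat when food is short. They are Pdk4, Angptl4, Plin2, Ehhadh, Crot and Bdh1, each described here in male rats, and Vnn1 and Cyp4a2, each described in female rats. Each had a row for that sex only in the deposited tables, so nothing is said of it in the other sex. The genes make up 8 of the 1434 rows in these tables, 6 of the 1365 male rows and 2 of the 69 female rows. Each was taken by its gene symbol from a table that the authors had already limited to transcripts differing between the diet groups. The genes were thus selected on the RPM difference between diet groups, and that difference is given below as a description, with levels and standard errors and without a p-value. The standard errors draw partly on the spread of all rows of these selected tables, so they may be too small.

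RNA was sequenced from the livers of Wistar rats at postnatal day 110. The MO animals were offspring of mothers on an obesogenic diet (MO, maternal obesity), and the controls were offspring of mothers on a control diet. There were 5 MO males and 6 control males, and 5 MO females and 6 control females, each with 1 library made from 10 to 20 mg of tissue. The labels used here do not give litters, the hour of collection or whether the animals had been fasted. Library numbers went with the diet groups. They were 4 to 8 in MO males and 1, 12, 23, 34, 45 and 56 in control males. In MO females they were 57 to 61, and in control females 44 and 46 to 50. What the numbers stand for was not examined, and their part in the differences was not tested.

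In fasting, fatty acids released from adipose tissue reach the liver and activate PPAR-alpha, a nuclear receptor that pairs with RXR on DNA and raises transcription of genes for fatty acid oxidation. Long chains are oxidised in mitochondria, very long and branched chains begin in peroxisomes, and a smaller share is hydroxylated at the far end of the chain by microsomal cytochromes. The acetyl-CoA formed feeds ketone body synthesis, while pyruvate dehydrogenase is switched off so that glucose carbon is spared. Pdk4, Angptl4, Plin2, Ehhadh, Vnn1 and the Cyp4a genes are well known targets of this receptor in rodent liver.

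Values are in RPM, that is reads relative to the size of the library, which are not divided by transcript length, so levels are compared between animals and never between genes. The sequencing depth was estimated from the step between low values. The estimate was 10530000 to 11590000 reads in MO males against 7890000 to 11170000 in control males. In females it was 10470000 to 11710000 in MO animals against 9170000 to 11770000 in controls. Of the low values, 81.4% to 86.6% fitted the estimated depth in males and only 54.9% to 61.1% in females. The median log2(RPM + 1) over the male rows was 3.72 to 4.06 in the MO libraries and 4.29 to 4.92 in the control libraries, and the median row differed by -0.58. In males 3.52% of the rows were higher in MO animals and 96.5% were lower. In females 65.2% of the rows were higher in MO animals, 34.8% were lower, and the median row differed by 0.59. The control males were not alike. Rmrp, an RNA without a poly(A) tail, had 1.71 to 3.11 RPM in MO males. Control male 1 with 1.20 RPM and control male 5 with 1.52 RPM resembled them, whereas the other 4 control males had 36.9 to 51.2 RPM. The genes below are therefore also given against each set of control males.

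Among the male genes, 4 of 6 were higher in MO animals, in a table where 3.52% of rows were, and 2 were lower, as were 96.5% of rows. The higher genes were Pdk4, Angptl4, Ehhadh and Plin2, and the lower ones were the peroxisomal transferase Crot and the ketone body enzyme Bdh1. Both female genes, Vnn1 and Cyp4a2, were lower in MO animals, as were 34.8% of the female rows. In bulk liver, fewer cells of a type and less RNA per cell cannot be told apart. Every MO male lay above every control male for Pdk4 and Angptl4, a property of 0.733% of male rows. No male gene of the set had every MO animal below every control, which 29.9% of male rows had. In females Vnn1 had every MO animal below every control, as did 4.35% of the female rows, whereas the opposite pattern held for 5.80% of female rows and for neither gene here. These shares belong to tables selected for a difference and are the backdrop to the counts, from which nothing further is read.

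Pdk4, on chromosome 4, encodes the kinase that phosphorylates and inactivates pyruvate dehydrogenase. Its level in MO males 1 to 5 was 53.3, 33.1, 38.6, 47.4 and 80.3 RPM, against a lowest of 10.6, a median of 15.4 and a highest of 18.3 RPM in the control males. The groups did not overlap, and the MO males were also the more spread of the groups, with MO male 5 highest. The mean was 50.6 ± 18.4 RPM in MO males (SD, n = 5) and 14.9 ± 3.30 RPM in control males (SD, n = 6). The log2 difference was 1.66 ± 0.21 (limma SE), a 3.15-fold higher level, and this was the 4th highest difference of the male table. Against control males 1 and 5 alone the log2 difference was 1.80, and against the other 4 control males it was 1.59.

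Angptl4, on chromosome 7, encodes a secreted inhibitor of lipoprotein lipase, which holds back uptake of circulating triglyceride. MO males 1 to 5 had 309, 237, 267, 346 and 237 RPM, against a lowest of 91.3, a median of 144 and a highest of 218 RPM in the control males. The lowest MO male thus stood above control male 3, the highest control. Its mean was 279 ± 47.3 RPM in MO males (SD, n = 5) and 146 ± 42.9 RPM in control males (SD, n = 6), a log2 difference of 0.97 ± 0.20 (limma SE). It was 1.12 against control males 1 and 5 and 0.89 against the other 4. On the log2 scale the MO males were closer together for Angptl4 than for any other gene of the set, with an SD of 0.24 against 0.42 in the control males.

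Plin2, on chromosome 5, encodes a protein that coats lipid droplets, and its amount follows the amount of stored triglyceride. The level was 383, 291, 535, 729 and 363 RPM in MO males 1 to 5, against a lowest of 186, a median of 256 and a highest of 328 RPM in the control males. MO male 2 alone lay among the controls, and MO male 4 stood highest. Means were 460.5 ± 174 RPM in MO males (SD, n = 5) and 254 ± 51.7 RPM in control males (SD, n = 6), a log2 difference of 0.80 ± 0.22 (limma SE). The difference was 1.14 against control males 1 and 5 and 0.63 against the other 4.

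Ehhadh, on chromosome 11, encodes the peroxisomal bifunctional enzyme, which carries out the hydratase and dehydrogenase steps of peroxisomal beta-oxidation. It was at 598, 435, 858, 948 and 599 RPM in MO males 1 to 5, against a lowest of 227, a median of 379 and a highest of 476 RPM in the control males. Again MO male 2 was the only MO animal within the control range, and MO males 3 and 4 were the highest. The mean was 688 ± 209.8 RPM in MO males (SD, n = 5) and 372 ± 99.5 RPM in control males (SD, n = 6). The log2 difference was 0.87 ± 0.22 (limma SE). Against control males 1 and 5 it was 1.33 and against the other 4 it was 0.65, the widest gap between the control sets of the 6 male genes. Without MO male 2, the groups of Ehhadh and Plin2 no longer overlapped, so that 4 male genes in place of 2 had non-overlapping groups.

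Crot, on chromosome 4, encodes the carnitine octanoyltransferase that readies chain-shortened peroxisomal products for export to mitochondria. Its level was lower in MO males, with 82.4, 60.6, 149, 158 and 114 RPM in animals 1 to 5, against a lowest of 146, a median of 206 and a highest of 322 RPM in the control males. MO males 3 and 4 lay within the lower end of the control range and the other 3 lay under it. Means were 113 ± 41.7 RPM in MO males (SD, n = 5) and 223 ± 79.7 RPM in control males (SD, n = 6), a log2 difference of -0.99 ± 0.26 (limma SE). Ehhadh and Crot thus act in the same organelle and differed in opposite directions.

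Bdh1, on chromosome 11, encodes the mitochondrial dehydrogenase that interconverts acetoacetate and beta-hydroxybutyrate. MO males 1 to 5 had 149, 129, 219, 157 and 193 RPM, against a lowest of 203, a median of 263 and a highest of 359.8 RPM in the control males. MO male 3 alone reached the control range. The mean was 169 ± 36.1 RPM in MO males (SD, n = 5) and 273 ± 58.5 RPM in control males (SD, n = 6), a log2 difference of -0.68 ± 0.19 (limma SE), against a median of -0.58 over the male rows. Against control males 1 and 5 the difference was -0.92 for Crot and -0.70 for Bdh1, and against the other 4 control males it was -1.02 and -0.67.

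**Figure D1:**
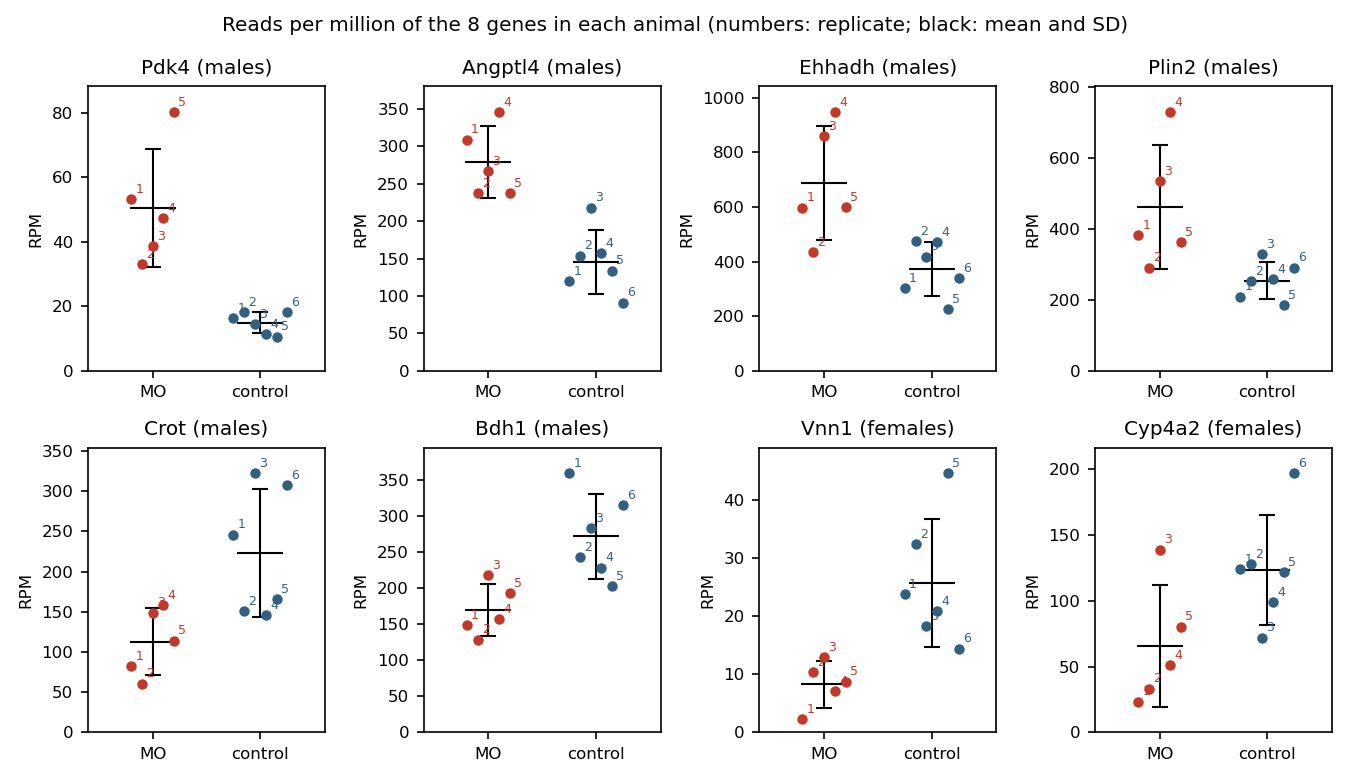
RPM of each gene in each animal, MO animals (red) left of control animals (blue), with replicate numbers beside the points and the mean and SD in black (n = 5 MO and 6 control animals per sex). Pdk4 and Angptl4 in males and Vnn1 in females have groups that do not overlap, and the other 5 genes have at least 1 MO animal inside the control range.

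Vnn1, on chromosome 1, encodes a pantetheinase, an enzyme that splits pantetheine into cysteamine and the coenzyme A precursor pantothenate. In MO females 1 to 5 it was at 2.27, 10.3, 12.99, 7.12 and 8.71 RPM, against a lowest of 14.4, a median of 22.3 and a highest of 44.5 RPM in the control females. The groups did not overlap, and MO female 1 was far under the other MO females. One read was worth 0.091 RPM in that library. The mean was 8.28 ± 3.99 RPM in MO females (SD, n = 5) and 25.7 ± 11.04 RPM in control females (SD, n = 6). The log2 difference was -1.58 ± 0.47 (limma SE), and it was -0.94 with a pseudocount of 10 in place of 1, since the levels are low.

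The row titled Cyp4a2, on chromosome 5, stands for a microsomal fatty acid omega-hydroxylase. Its level was 23.5, 33.3, 139, 51.4 and 80.5 RPM in MO females 1 to 5, against a lowest of 72.1, a median of 123 and a highest of 197 RPM in the control females. MO females 1, 2 and 4 lay under every control, and MO female 3 lay above 5 of the 6 controls. Means were 65.5 ± 46.4 RPM in MO females (SD, n = 5) and 124 ± 41.6 RPM in control females (SD, n = 6), a log2 difference of -1.12 ± 0.55 (limma SE), the largest standard error of the 8 genes. MO female 1 was the lowest MO female for Vnn1 as well as for Cyp4a2, and MO female 3 was the highest for both.

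Which Cyp4a gene this row measures is uncertain. Its transcript accession belongs to Cyp4a2 in RefSeq (assembly GRCr8), but its gene ID and its description, polypeptide 3, belong to Cyp4a3. For the other 7 genes both identifiers gave the same symbol. The 2 genes are close paralogs on the same chromosome, and no source used here says how reads that fit both were counted. Their promoter windows are shown for that reason, as the 250 bases before the annotated start (RefSeq, GRCr8, written 5′ to 3′ on the strand of the gene). Capitals mark AGGTCA, the motif that PPAR-alpha, RXR and other nuclear receptors bind. The Cyp4a2 window is chr5:134170909-134171158 and the Cyp4a3 window is chr5:134352237-134352486, both on the minus strand.
Cyp4a2: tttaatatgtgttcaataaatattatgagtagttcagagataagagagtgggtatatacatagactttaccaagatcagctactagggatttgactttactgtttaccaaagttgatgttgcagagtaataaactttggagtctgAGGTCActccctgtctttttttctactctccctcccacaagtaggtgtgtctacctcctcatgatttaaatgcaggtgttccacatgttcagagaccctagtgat
Cyp4a3: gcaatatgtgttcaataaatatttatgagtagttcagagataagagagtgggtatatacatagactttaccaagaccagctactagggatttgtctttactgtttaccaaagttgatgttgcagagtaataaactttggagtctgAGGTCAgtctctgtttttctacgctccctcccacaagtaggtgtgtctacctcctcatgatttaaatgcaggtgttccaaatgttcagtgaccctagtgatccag
In a global alignment 236 of 245 aligned positions were identical (96.3%), with 10 further bases in gaps, and AGGTCA began at position -105 from the start in both. AGGTCA is found on either strand in 14.1% of the 33469 promoter windows of that length. A paired copy of it, in direct repeat with 1 base between, is the classical PPAR-alpha element. That exact repeat is present in 0.0508% of windows and in none of those of the 7 genes matched here, which says only that these letters are not in these windows.

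Ehhadh and Plin2 are the pair whose levels went together most closely within groups, as described below, and their windows are printed for comparison. That of Ehhadh is chr11:92746159-92746408 on the plus strand and that of Plin2 is chr5:106229019-106229268 on the minus strand, the first of its 2 annotated starts. Capitals mark a CCAAT box, which reads ATTGG on the opposite strand, in Ehhadh and an E-box, CACGTG, in Plin2.
Ehhadh: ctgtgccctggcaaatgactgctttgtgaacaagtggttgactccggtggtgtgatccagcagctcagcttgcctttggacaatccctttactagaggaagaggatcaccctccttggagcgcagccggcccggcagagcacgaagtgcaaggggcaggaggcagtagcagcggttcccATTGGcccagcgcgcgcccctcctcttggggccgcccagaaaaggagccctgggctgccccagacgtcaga
Plin2: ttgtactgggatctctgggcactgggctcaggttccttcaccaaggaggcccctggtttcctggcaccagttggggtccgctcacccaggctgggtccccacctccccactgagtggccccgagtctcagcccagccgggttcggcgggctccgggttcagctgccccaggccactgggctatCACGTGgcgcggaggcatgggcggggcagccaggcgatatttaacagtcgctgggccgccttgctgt
The CCAAT box of Ehhadh began at position -71 from the start and the E-box of Plin2 at -67. CCAAT, searched on both strands, is in 34.02% of all windows and CACGTG in 5.59%. Neither window held the motif of the other. Crot and Pdk4 also had a CCAAT box, at -93 and -153 from the start, and the windows of Angptl4 and Bdh1 held none of the 4 motifs searched. The motifs searched did not overlap one another in any printed window.

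The differences above depend on how the libraries are scaled. When each library was centred on its own median over the rows of its table, the shift between MO and control males of -0.58 was removed from every male gene. Pdk4 then differed by 2.24, Angptl4 by 1.55, Ehhadh by 1.46 and Plin2 by 1.39 on the log2 scale. Crot differed by -0.40 and Bdh1 by -0.10, so the Bdh1 difference was nearly the shift of the whole table. The female shift was 0.23, and after centring Vnn1 differed by -1.81 and Cyp4a2 by -1.34. All 8 genes kept their sign on both scales. After centring, Ehhadh and Plin2 joined Pdk4 and Angptl4 as male genes with non-overlapping groups, while the groups of Vnn1 overlapped. Since the male rows were selected for a difference and nearly all of them were lower, their median is not a neutral reference, and which scale is nearer to the RNA content of the livers cannot be told apart.

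**Figure D2:**
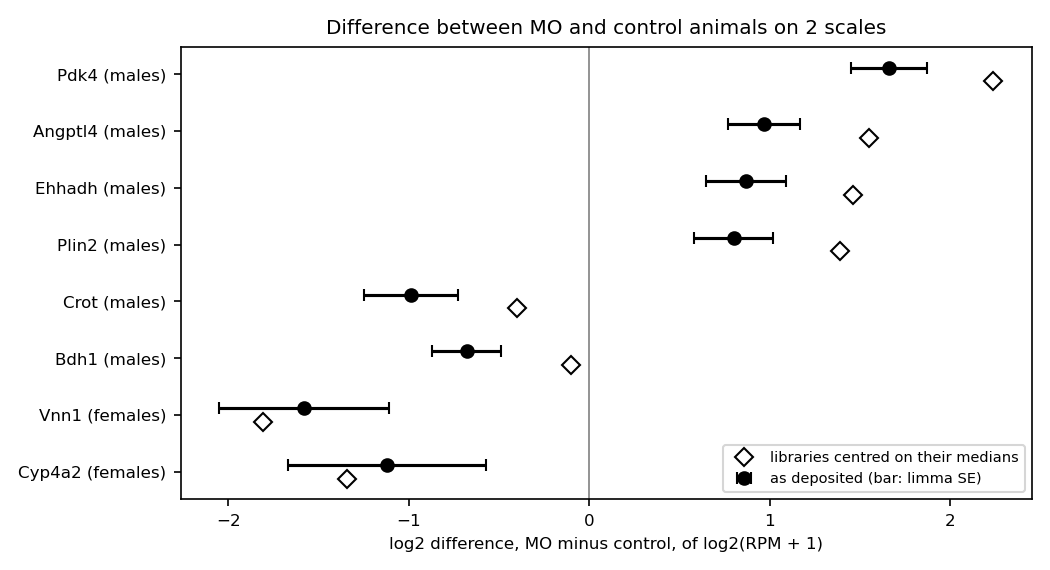
Log2 difference, MO minus control, of each gene as deposited (filled circles, bars are limma standard errors) and after each library was centred on its median (open diamonds). Centring moves the 6 male genes up by 0.58 and the 2 female genes down by 0.23, and leaves Bdh1 at -0.10.

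The wider pathways were read from 11 lists of genes around these 8, which hold 244 entries. In males 33 of the entries had a row, 9 higher and 24 lower. Without the genes described above these were 27, of which 5 were higher and 22 lower. Of all male rows 96.5% are lower, and a gene without a row is not analysed here. In females 6 entries had a row and 4 remained without Vnn1 and Cyp4a2.

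Of the list of PPAR-alpha and its regulators, 0 of 25 genes had a male row. Among peroxisomal genes 9 of 44 had a row, 2 higher and 7 lower, with a median difference of -0.67 against -0.58 over all male rows. Beside Ehhadh the higher one was Hacl1, the lyase of alpha-oxidation. It had 633 ± 119 RPM in MO males and 345 ± 110.0 RPM in control males (SD, n = 5 and 6), with every MO male above every control. The largest difference of the list was that of Acox2, the oxidase of bile acid intermediates and branched chains, at 245 ± 51.5 RPM in MO males and 603 ± 169 RPM in control males (SD, n = 5 and 6). Its log2 difference was -1.27 ± 0.21 (limma SE), and -0.69 after centring. Scp2, Cat, Pex2 and Pex11g lay between -0.77 and -0.52. Every MO male lay below every control for 4 of the 9 genes, Acox2, Cat and Pex11g among them. That pattern held for 29.9% of all male rows, and the opposite one, seen here for Hacl1 only, for 0.733%. After centring 6 of the 9 peroxisomal genes were below 0.

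Among mitochondrial fatty acid oxidation genes 4 of 34 had a row and all 4 were lower, at a median of -0.56. The largest difference was that of Acacb, which makes the malonyl-CoA that holds back carnitine palmitoyltransferase. It was at 18.1 ± 10.00 RPM in MO males and 36.9 ± 19.5 RPM in control males (SD, n = 5 and 6), a log2 difference of -0.96 ± 0.30 (limma SE). In ketone body metabolism 2 of 12 genes had a row, Bdh1 among them, and both were lower. In fatty acid uptake and activation 2 of 20 genes had a row and both were lower. They were the acyl-CoA synthetase Acsm5 (53.7 ± 18.5 RPM in MO males, 128 ± 29.6 RPM in control males) and the liver transporter and bile acid ligase Slc27a5 (579 ± 124 RPM in MO males, 903 ± 204 RPM in control males; SD, n = 5 and 6 for both). In omega-oxidation the male table held Cyp4f6 and no Cyp4a gene, and Cyp4f6 differed by -0.49 ± 0.18 (limma SE).

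In 4 of the lists 1 gene was higher and 1 was lower. With Pdk4 stood Pdpr, the regulatory subunit of the phosphatase that reactivates pyruvate dehydrogenase, at 1.03 ± 0.502 RPM in MO males and 2.55 ± 0.882 RPM in control males (SD, n = 5 and 6). With Angptl4 stood the apolipoprotein Apoc1, which also inhibits lipoprotein lipase, at 129.6 ± 31.6 RPM in MO males and 186 ± 30.7 RPM in control males. With Plin2 stood the lipase-like Aadac, at 47.2 ± 11.4 RPM in MO males and 66.7 ± 5.27 RPM in control males. In the list of coenzyme A genes Slc25a42, the mitochondrial coenzyme A carrier, was higher at 177 ± 44.3 RPM in MO males and 117 ± 35.9 RPM in control males. The vitamin transporter Slc5a6 was lower there, at 26.5 ± 4.31 RPM in MO males and 40.3 ± 12.9 RPM in control males. After centring Pdpr remained below 0 at -0.22, whereas Apoc1, Aadac and Slc5a6 lay at 0.05, 0.07 and 0.04.

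Of 31 other genes known to respond to fasting in liver, 7 had a male row. Of these 3 were higher and 4 lower in MO males, in a table where 3.52% of rows were higher and 96.5% lower. The largest difference was that of the mitochondrial carrier Slc25a30, at 33.99 ± 11.9 RPM in MO males and 14.96 ± 15.6 RPM in control males (SD, n = 5 and 6). Its log2 difference was 1.59 ± 0.43 (limma SE). The groups overlapped, at 19.8 to 52.4 RPM in MO males and 2.41 to 44.6 RPM in control males, and 1 MO male lay above every control. Nampt and Irs2 were also higher, with log2 differences of 1.46 and 0.65. The glycerol kinase Gk differed by -1.32, the glycerol channel Aqp9 by -0.99, Gpt2 by -0.69 and Fbp1 by -0.54. In females the rows beside Vnn1 and Cyp4a2 were Igfbp1, Gadd45b, Sgk1 and Pparg. Igfbp1, an insulin-repressed binding protein, had 96.3 ± 77.9 RPM in MO females and 329 ± 182 RPM in control females (SD, n = 5 and 6). Gadd45b differed by -1.22 and Sgk1 by 0.79, and Pparg, at 0.620 ± 0.500 RPM in MO females and 0.0659 ± 0.136 RPM in control females (SD, n = 5 and 6), differed by 0.55. Pparg lay near the floor, since 1 read was worth 0.085 to 0.109 RPM in the female libraries.

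**Figure D3:**
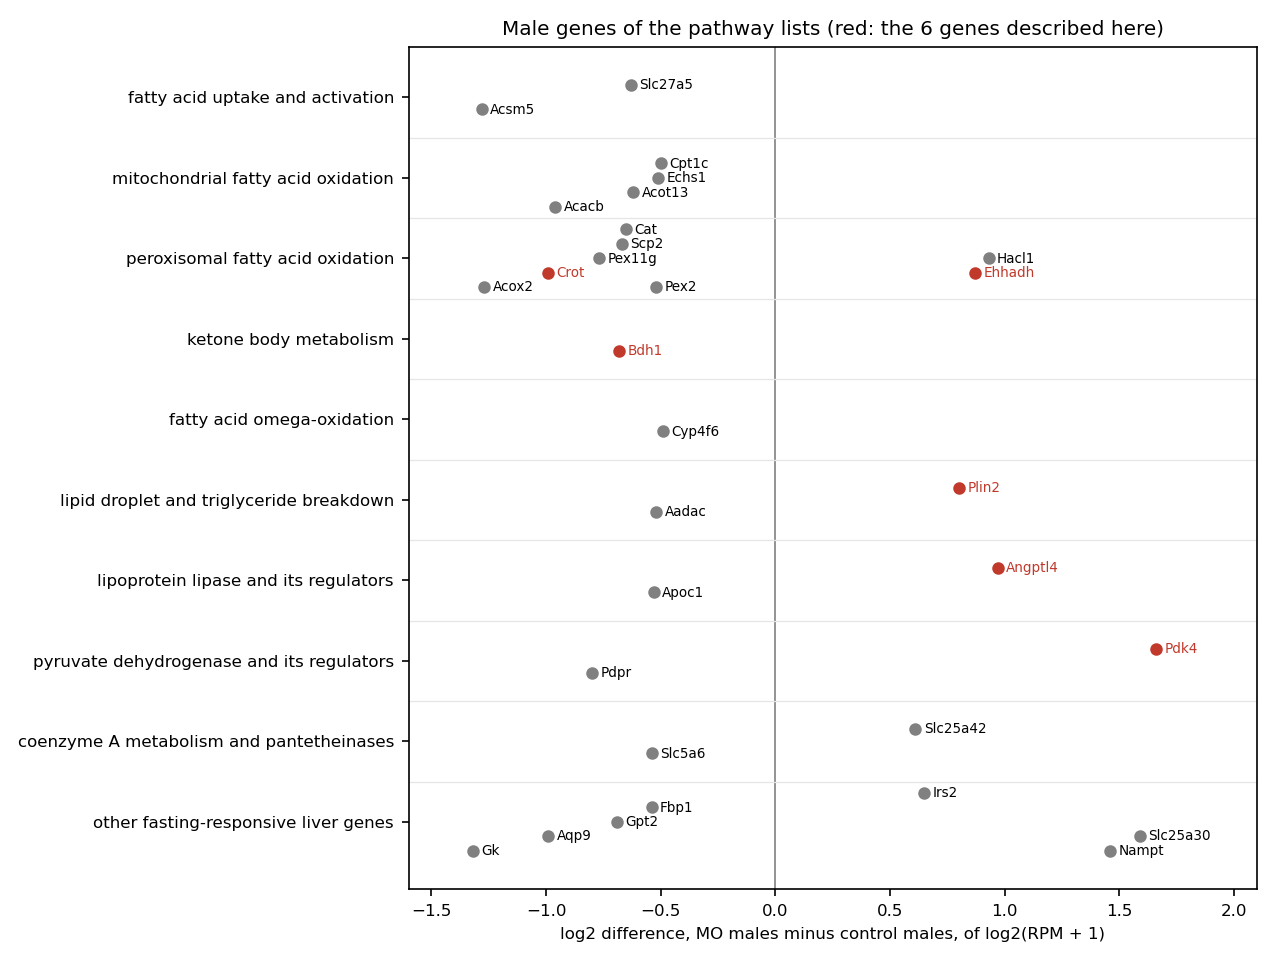
Log2 difference, MO males minus control males, of 31 genes of the pathway lists that have a row in the male table, by list, with the 6 male genes described here in red. Points left of 0 are lower in MO males, and 22 of the 31 lie there, in a table where 96.5% of rows do.

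Markers of other cell types were looked up in the same tables. In males the adipocyte list had 1 of 8 genes with a row (Cfd, 6.08 to 13.98 RPM in MO males and 9.09 to 16.7 RPM in control males), while Adipoq, Lep and Plin1 had none. The stellate cell list had 3 of 8, summing to 28.96 to 34.3 RPM in MO males and 42.6 to 55.5 RPM in control males. The bile duct list had 2 of 6, summing to 6.17 to 13.4 RPM in MO males and 11.4 to 17.99 RPM in control males. These markers were lower in MO males like most rows, and their part in the results for the 6 male genes was not tested. The lists for Kupffer cells, sinusoidal endothelial cells, erythroid cells and pancreatic acinar cells had none. Of the 12 hepatocyte markers Cps1 alone had a row, at 796 to 916 RPM in MO males and 859 to 1899.8 RPM in control males, so the liver label was checked on that gene only. In females the acinar marker Cela1 was at 0 to 0.939 RPM in MO females and 1.27 to 6.66 RPM in control females. Its part in the results for Vnn1 and Cyp4a2 was not tested.

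Whether the genes of the set vary together from animal to animal was not used to choose them, and it was tested. Each animal's log2 value was taken as its deviation from the mean of its own diet group, and pairs of genes of the same table were correlated over the 11 animals of that sex. There were 16 pairs, 15 in males and 1 in females, and their p-values were adjusted together with the Benjamini-Hochberg procedure. Each p-value is the share of reorderings of animals within groups that gave an r at least as large in size. It treats the animals of a group as independent, although their litters are not known. Of the 16 correlations 14 were positive, 3 had an unadjusted exact permutation p under 0.05, and 1 passed after adjustment. Positive values are common in these tables. The median r with all other rows ran from -0.11 for Angptl4 to 0.47 for Crot in males. In females it was 0.42 for Vnn1 and 0.62 for Cyp4a2. The count of positive pairs is therefore not read as a trait of the set.

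That pair was Ehhadh, the peroxisomal enzyme, and Plin2, the droplet protein, with Pearson's r of 0.84 (two-sided exact permutation p = 0.0028, adjusted p = 0.046). Spearman's rho was 0.81 and did not pass (exact permutation p = 0.0065, adjusted p = 0.1). MO male 2 was low for both genes, with deviations of -0.60 for Ehhadh and -0.58 for Plin2, and so was control male 5, with -0.67 and -0.42. MO male 4 was high for both, with 0.52 and 0.74. Without the 2 animals farthest from the median of Ehhadh, r was 0.74 and the pair no longer passed (exact permutation adjusted p = 0.33). The call was also lost without MO male 1 or MO male 5, with r still at 0.84 (exact permutation adjusted p = 0.14 and 0.13). In the 6 control males alone r was 0.70 (exact permutation p = 0.13, adjusted p = 0.75). With the control males in 2 sets by their Rmrp level, r was 0.79 and the adjusted exact permutation p was 0.18. After centring of the libraries r was 0.85 (exact permutation adjusted p = 0.029). Over all alternatives r stayed between 0.70 and 0.89, with adjusted exact permutation p-values of 0.026 to 0.75.

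**Figure D4:**
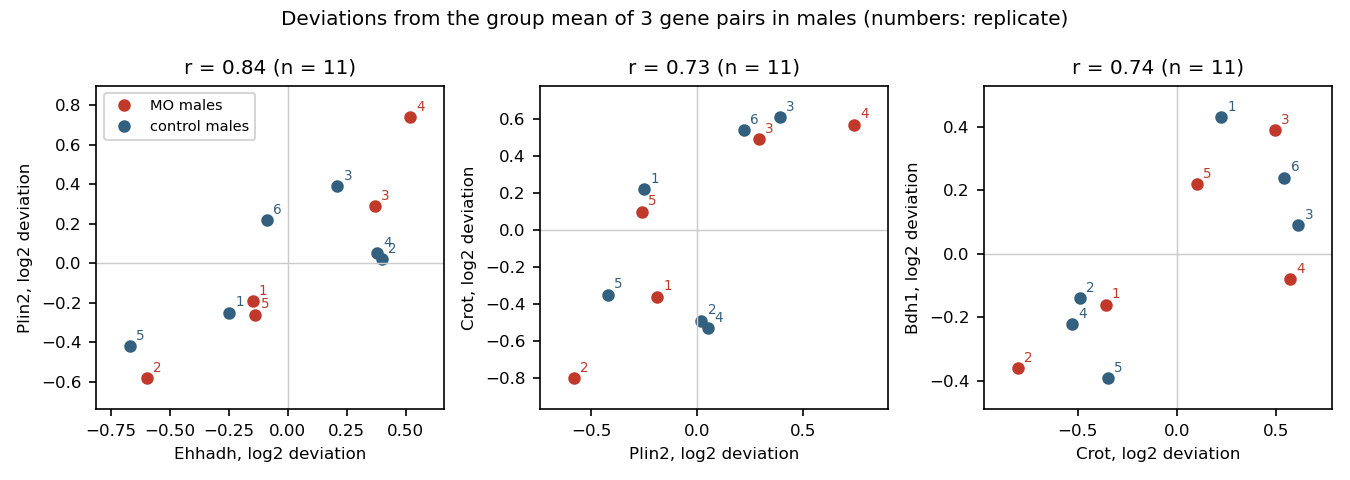
Deviation of each male animal from the mean of its diet group, in log2 units, for the 3 gene pairs with an unadjusted exact permutation p under 0.05, with MO males in red, control males in blue and replicate numbers beside the points. MO male 2 lies at the lower left of each panel, and Ehhadh and Plin2 have the highest r, 0.84.

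Crot had the next highest correlations, with Plin2 and with Bdh1. Plin2 and Crot had an r of 0.73 (exact permutation p = 0.021, adjusted p = 0.11) and a rho of 0.70 (adjusted p = 0.22 by the exact permutation test). Crot and Bdh1 had an r of 0.74 (exact permutation p = 0.019, adjusted p = 0.11) and a rho of 0.65 (adjusted p = 0.26 by the exact permutation test). Neither pair passed. After centring r was 0.53 for Plin2 and Crot and 0.46 for Crot and Bdh1. Plin2 was higher and Crot lower in MO males, while their r within groups had a positive sign.

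Pdk4 and Angptl4, the genes that separated the diet groups of males fully, had an r of -0.17 within groups (exact permutation p = 0.58, adjusted p = 0.71). MO male 5 had the highest Pdk4 of all the males, with a deviation of 0.72, and an Angptl4 deviation of -0.22. Control male 6 had a Pdk4 deviation of 0.30 and an Angptl4 deviation of -0.62. Pdk4 had an r of 0.12 with Plin2, 0.19 with Ehhadh, 0.33 with Crot and 0.50 with Bdh1, and Angptl4 had an r of 0.51 with Ehhadh, 0.45 with Plin2 and -0.27 with Bdh1. None of these passed (exact permutation adjusted p = 0.38 to 0.83). With 11 animals a correlation of this size cannot be told from none, so these values do not show that the genes vary independently. In females Vnn1 and Cyp4a2 had an r of 0.50 (exact permutation p = 0.2, adjusted p = 0.45), and 0.15 without the 2 farthest animals.

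**Figure D5:**
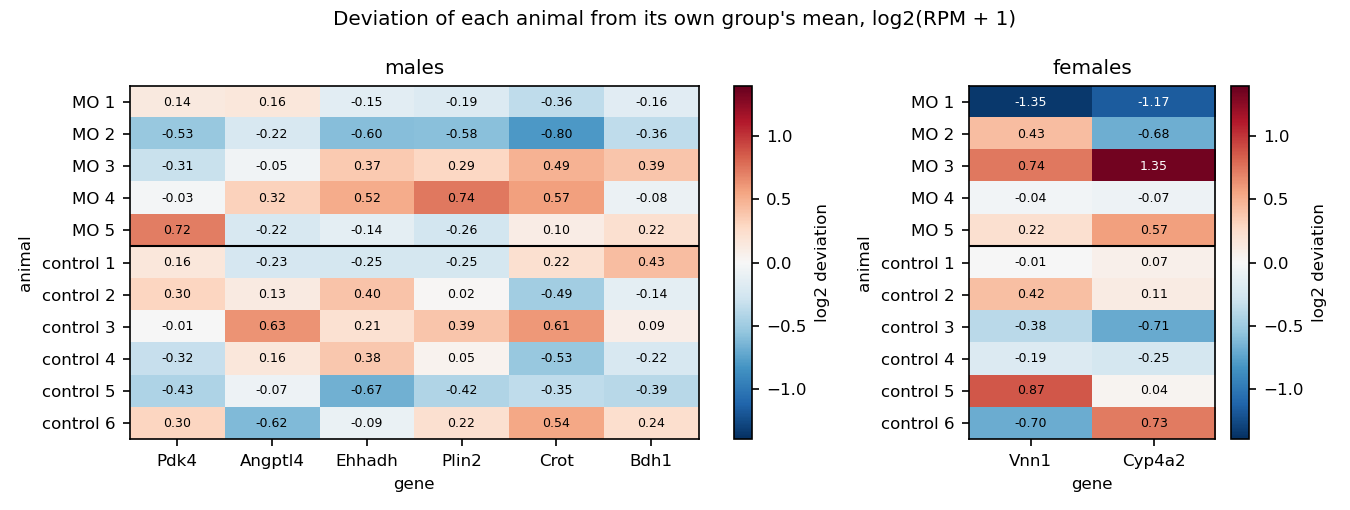
Log2 deviation of each animal (rows, MO animals above the line and control animals under it) from the mean of its diet group, for the male genes on the left and the female genes on the right. MO male 2 is below its group's mean for all 6 male genes, from -0.80 for Crot to -0.22 for Angptl4, and MO female 1 is below for both female genes.

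For each gene the 2 rows of its own table with the highest within-group r over the 11 animals were named as a description, without a test. The rows share libraries and depth, and the best of many rows is high by choice. For Pdk4 these were Acacb and Vgll4, each with an r of 0.84, against a median r of 0.09 over all male rows. Acacb was lower and Pdk4 higher in MO males, so the pair went together among animals within groups and apart between groups. For Ehhadh they were Tjp3 (0.91) and Kank1 (0.87), and for Plin2 Kank1 (0.94) and Atxn1 (0.91), so that Ehhadh and Plin2 shared 1 of their 2 nearest rows. The median r over rows was 0.10 for Ehhadh and 0.37 for Plin2.

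Crot was most like Zfp385b (0.95) and Sfmbt1 (0.94), with a median r of 0.47 over rows, and Bdh1 was most like Flvcr2 (0.97), a transporter, and Scly (0.91), the selenocysteine lyase, with a median of 0.29. Of the male genes Angptl4 had the weakest nearest rows, Hcst and Lrrc61, each with an r of 0.71, and a median of -0.11. Hcst lay near the floor, at a mean of 0.365 RPM in MO males and 0.971 RPM in control males. In females Vnn1 was nearest to Mcpt10 (0.76) and Fam129c (0.70), and Cyp4a2 to C5ar2 (0.94) and the calcium pump Atp2a2 (0.90). Over the 69 female rows the median r was 0.42 for Vnn1 and 0.62 for Cyp4a2.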

How the data were processed

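Liver RNA of 22 rats was sequenced, 1 library per animal. Per the labels' protocols, libraries were made with a TruSeq RNA kit. Per the submitters' processing notes STAR 2.3.1j, Partek and rn5 were used, with no role stated. No source used here states the annotation, the strand setting or the counting rule. The values deposited by the authors are RPM plus 1, inferred from the low values, of which 81.4% to 86.6% in males and 54.9% to 61.1% in females were whole multiples of 1 read within 0.02 (under 9 RPM). One read was worth 0.085 to 0.127 RPM. Means here are RPM with that 1 subtracted. The size of the log2 difference deposited by the authors was recovered from the values for 1365 male and 67 female rows, within 0.011. No male row had a deposited p-value of 0.05 or more, while 2 female rows did, up to 0.165. No row of either table had a deposited log2 size under 0.48, so the tables hold selected rows. Each table was fitted separately with limma 3.58.1 (R 4.3.3, limma-trend) on log2(RPM + 1), a scale that understates the change of low genes, for differences and standard errors only. No filter was applied. The count model named as one option in the planned design was not needed, as the values are normalised.

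The 8 genes and the lists were chosen with earlier results of these data known. Named beside the 8 genes were the listed gene with the largest difference of each pathway list, every listed gene where such a list had 3 or fewer (save rows not reported here), and the 2 rows most alike to each gene. Rows not reported by name are still counted. Markers of cell types are given as sums. Further listed genes were named after their values were seen. Correlations used exact permutations of animals within groups (scipy 1.17.1) and an adjusted threshold of 0.05. The steps were tested on simulated data. Promoters came from the RefSeq table of GRCr8, which matched 7 of the 8 genes, and chromosomes are those of the deposited tables for genes and of GRCr8 for promoters.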

Additional observations from a re-analysis of the deposited data

How the results depend on the processing

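The direction of all 8 differences was the same in 148 of 148 alternatives, of which 140 stayed within 1 pooled SD. In males 4 genes were higher under each of 19 alternatives. The rows were selected for this same difference, and the alternatives reuse the same animals. Kept signs were thus nearly fixed in advance and add no support. The count of male genes with non-overlapping groups was 2, against 4 after centring and 5 with control males 1 and 5 only, and was 2 to 4 when 1 animal was left out (4 without MO male 2). The female count was 1, against 0 after centring. Animals with the same replicate number had correlations of deviations of -0.10 to 0.15 in males and -0.42 to 0.33 in females. These were not set against animals with different numbers, so they cannot settle whether the numbers pair the animals. With the replicate block the log2 differences were 1.72 for Pdk4, 0.84 for Angptl4, 0.86 for Ehhadh, 0.85 for Plin2, -0.88 for Crot, -0.63 for Bdh1, -1.72 for Vnn1 and -0.97 for Cyp4a2. Leaving out 1 animal gave -1.77 to -1.24 for Vnn1 and -1.45 to -0.83 for Cyp4a2. The count of male pairs that passed was 1, and 0 in control animals only, without the 2 farthest animals or with the controls in 2 sets by Rmrp, the last chosen after seeing the data. It was 0 to 1 when 1 animal was left out, and Ehhadh with Plin2 passed only without control male 2 or 6. Its r was 0.78 to 0.89 there, with an exact permutation adjusted p of 0.026 to 0.25. The cause was not tested. The lowest level of Vnn1 was 2.27 RPM, in MO female 1, where 1 read was worth 0.091 RPM, and the effect of depth on it was not tested.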

Other observations

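The rows that ran most opposite to Pdk4, Angptl4 and Bdh1 within groups were read as a description, without a test. For Pdk4 this was Ppp1r3c, a glycogen-targeting subunit of protein phosphatase, with an r of -0.82, and -0.46 after centring (n = 11). Ppp1r3c had a mean of 28.8 RPM in MO males and 81.7 RPM in control males. For Angptl4 it was Rgs16, a regulator of G protein signalling, with an r of -0.81, and -0.44 after centring, although both were higher in MO males. For Bdh1 it was Oat, the ornithine aminotransferase, with an r of -0.80, and -0.59 after centring, although both were lower in MO males. The most opposite rows of other genes of the set had a weaker r, -0.64 for Ehhadh, -0.64 for Plin2, -0.59 for Crot and -0.62 for Vnn1. Each of these rows has the lowest r of its whole table, so its r is low by choice.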
